A study of Mus musculus with 10 samples.

Results

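GDNF signaling and spermatogonial stem cell factors, a set of 10 genes, were examined in mouse testes that lacked the ribonuclease DIS3 in their germ cells. The genes were taken by symbol, through their Ensembl gene IDs, and all 10 of the listed symbols (Gfra1, Ret, Gfra2, Etv5, Bcl6b, Lhx1, Id4, Eomes, Pax7 and Tspan8) were found among the 54232 genes of the deposited table. The 5 Dis3 cKO mice were B6D2F1 mice with 1 floxed and 1 deleted allele of Dis3 (Dis3 F/-) and the Ddx4-Cre transgene, labelled Dis3 KO, and the 5 control mice were their siblings, labelled Dis3 WT, all at postnatal day 4 (P4). Ddx4-Cre is expressed in male germ cells and deletes exons 4 to 6 of Dis3 there. The other testis cells of a Dis3 cKO mouse still have the floxed allele, beside the deleted one. Beyond the label, the paper does not give the Dis3 alleles of the control siblings. Effects of the loss in germ cells and of the deleted allele in other cells therefore cannot be told apart here. Each library was total RNA of the testes of 1 mouse, both testes together.

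GDNF is a ligand that Sertoli and peritubular myoid cells of the testis secrete. It binds the receptor GFRA1 on undifferentiated spermatogonia, and the bound pair activates the receptor tyrosine kinase RET, which signals to SRC family kinases, PI3 kinase and AKT. In cultured mouse germline stem cells this signal keeps Etv5, Bcl6b and Lhx1 expressed, and mice with too little GDNF lose their stem cells. Id4, Eomes, Pax7 and Tspan8 mark small subsets of spermatogonia with stem cell activity in mice.

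The libraries held 28538849 to 37739906 gene counts in Dis3 cKO and 35391042 to 41104912 in control. Dis3 itself averaged 1494 ± 167 normalized counts in Dis3 cKO and 4596 ± 491 in control (SD, n = 5 each), with every Dis3 cKO library below every control library, so the labels held for the targeted gene, whose count covers all exons and not the deleted ones alone (edgeR, log2 fold change -1.62, adjusted p = 3.78e-07). A normalized count is the count of a library divided by its TMM-scaled size relative to the mean of all libraries. The 12 genes taken as common to germ cells had a summed normalized count of 19734 to 24826 in Dis3 cKO libraries and 27139 to 33451 in control libraries, without overlap, and 7 of them were lower in Dis3 cKO past the threshold of an adjusted p under 0.05. In whole testes, fewer cells of a type and less RNA per cell cannot be told apart. The libraries also formed a division that no label names, seen in earlier results of these data, of replicates 1 to 3 of both genotypes and replicates 4 and 5 of both genotypes. The values of the 10 genes are therefore also given within each of these sets. Because the division was seen in these same libraries, p-values within or between the sets are not an independent test of it.

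None of the 10 genes passed the threshold in the comparison of all Dis3 cKO with all control libraries. In that fit 4.42% of 20043 tested genes were called higher and 3.48% lower. By edgeR, 0 of the 10 genes were called higher and 0 lower, and at an unadjusted p under 0.05 the counts were again 0 and 0. At that unadjusted p, 2361 of all 20043 tested genes were higher and 2432 lower. By DESeq2, 0 of the 10 were called in either direction, where 1309 of all genes were called higher and 926 lower. By DESeq2, 1 of the 10 was higher at an unadjusted p under 0.05, for which the count over all genes is not given here. The ranges of the groups overlapped for all 10 genes, where 8.89% of all tested genes had groups that did not overlap. The log2 fold changes had a median of 0.12 (all tested genes, -0.01), with 8 of the 10 above 0. All 10 genes passed the filter on low counts.

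**Figure D1:**
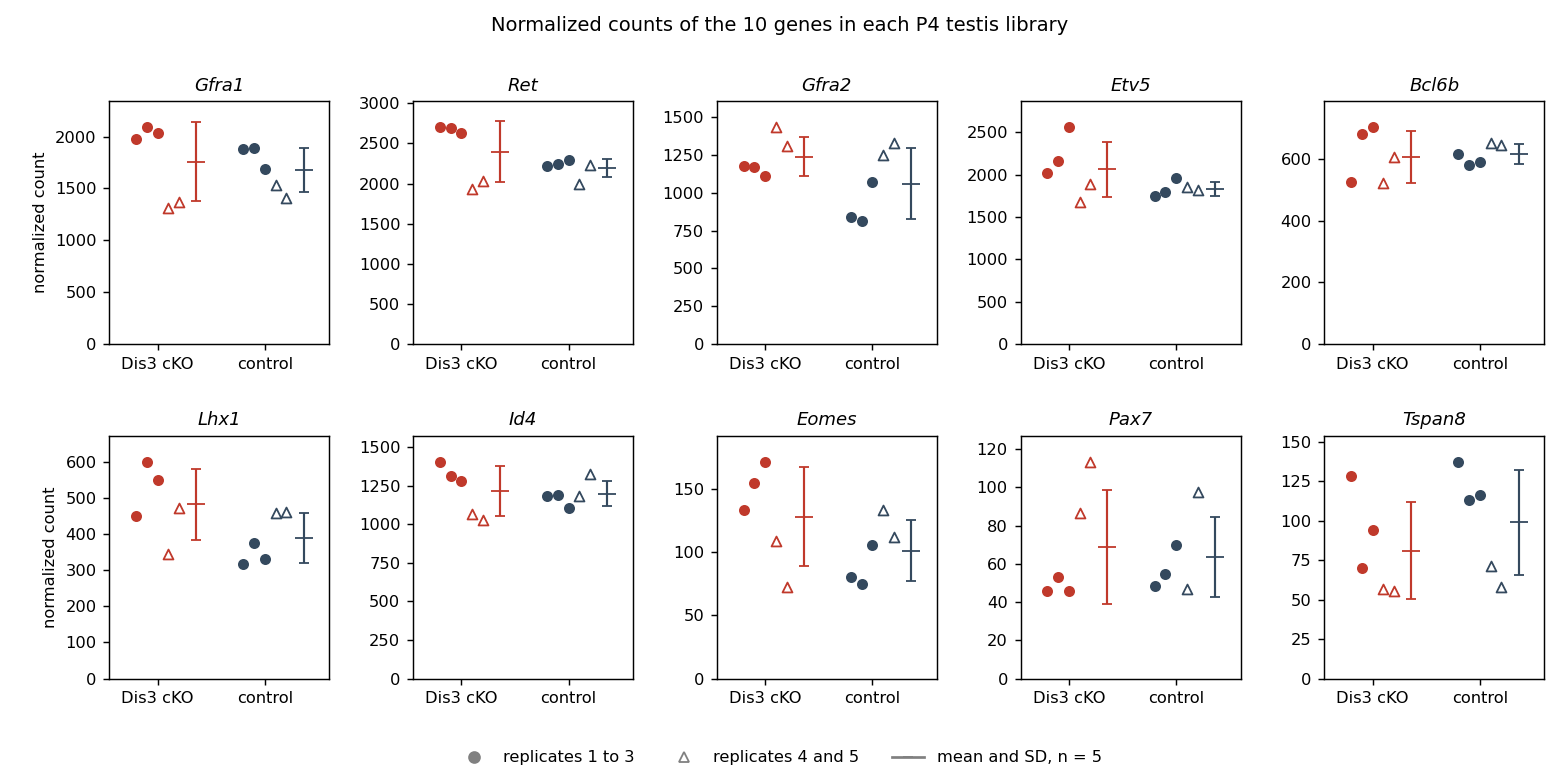
Normalized counts of each of the 10 genes in the 5 Dis3 cKO libraries (left, red) and the 5 control libraries (right, dark blue), with circles for replicates 1 to 3, open triangles for replicates 4 and 5, and the mean with its SD beside them. The groups overlap in every panel, and for Gfra1 the 2 triangles lie below the 3 circles in both groups.

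Ret (ENSMUSG00000030110, chr6:118151745-118197718, minus strand, GRCm38) encodes the kinase that carries the GDNF signal into the cell. Its normalized counts were 2701, 2693, 2629, 1936 and 2026 in Dis3 cKO replicates 1 to 5, against 2216, 2239.7, 2298, 2000.3 and 2228 in control replicates 1 to 5. The first 3 Dis3 cKO libraries lay above every control library, and Dis3 cKO replicate 4 lay below every control library. The means were 2397 ± 382 in Dis3 cKO and 2196 ± 114 in control (SD, n = 5 each), and the log2 fold change of 0.13 had a 95% interval of -0.08 to 0.34 (edgeR, adjusted p = 0.483).

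Gfra1 (ENSMUSG00000025089, chr19:58235604-58455909, minus strand) encodes the receptor that binds GDNF. It had 1981, 2089.8, 2034, 1316 and 1372 normalized counts in Dis3 cKO, against 1882, 1886, 1689, 1532 and 1404 in control. The highest and the lowest of the 10 values were both from Dis3 cKO testes. Gfra1 had a log2 fold change of 0.07 with an interval of -0.23 to 0.36 (edgeR, adjusted p = 0.817). Gfra2 (ENSMUSG00000022103, chr14:70890120-70979838, plus strand), the receptor of the related ligand neurturin, had 1176, 1174, 1111, 1433 and 1308 normalized counts in Dis3 cKO and 841, 812, 1069.8, 1254 and 1330.5 in control. Here replicates 4 and 5 were the high ones in both groups, the opposite of Gfra1. The Gfra2 log2 fold change was 0.23, with an interval of -0.06 to 0.51 (edgeR, adjusted p = 0.332).

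Of the transcription factors that respond to GDNF, Etv5 (ENSMUSG00000013089, chr16:22381309-22439719, minus strand), an ETS family factor that Sertoli cells of the mouse also express, had 2017, 2161, 2559, 1683 and 1894 normalized counts in Dis3 cKO, against 1746, 1794, 1960.0, 1851 and 1817 in control. Its control libraries were close together and its Dis3 cKO libraries spread on both sides of them. The means were 2063 ± 328 in Dis3 cKO and 1834 ± 80.2 in control (SD, n = 5 each), and the log2 fold change was 0.17 with an interval of -0.03 to 0.37 (edgeR, adjusted p = 0.302). Bcl6b (ENSMUSG00000000317, chr11:70224128-70229798, minus strand), a transcriptional repressor, averaged 607 ± 84.5 normalized counts in Dis3 cKO and 618 ± 32.3 in control, and its log2 fold change of -0.02 had an interval of -0.24 to 0.19 (edgeR, adjusted p = 0.923). Lhx1 (ENSMUSG00000018698, chr11:84518284-84525535, minus strand), a LIM homeobox factor, had 449, 599, 550.1, 343 and 472 normalized counts in Dis3 cKO, against 316, 374, 330.0, 458 and 461 in control. It had the lowest unadjusted p of the 10 genes. Its log2 fold change was 0.32, with an interval of -0.01 to 0.65 (edgeR, adjusted p = 0.229).

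Id4 (ENSMUSG00000021379, chr13:48261228-48266026, plus strand) encodes an inhibitor of basic helix-loop-helix factors. It had 1402, 1311, 1277, 1069 and 1026 normalized counts in Dis3 cKO, against 1179.8, 1188, 1108, 1186 and 1327 in control. The first 3 Dis3 cKO libraries lay above control replicates 1 to 4, and the last 2 lay below every control library, with a log2 fold change of 0.02 with an interval of -0.18 to 0.22 (edgeR, adjusted p = 0.915).

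The other stem cell markers were scarce. Eomes (ENSMUSG00000032446, chr9:118478212-118486132, plus strand), a T-box factor that T and NK cells also express, had 133, 155, 171, 109 and 72.5 normalized counts in Dis3 cKO, against 80.1, 74.5, 106, 133 and 112 in control. The log2 fold change of 0.34 had an interval of -0.16 to 0.84 (edgeR, adjusted p = 0.416). Pax7 (ENSMUSG00000028736, chr4:139737062-139833528, minus strand), a paired box factor that is also the marker of muscle satellite cells, had 45.7, 53.2, 45.8, 86.4 and 113 normalized counts in Dis3 cKO and 48.5, 54.7, 69.7, 47.0 and 97.4 in control. The spread within each group was wide, and the log2 fold change of 0.12 had an interval of -0.52 to 0.75 (edgeR, adjusted p = 0.859). Tspan8 (ENSMUSG00000034127, chr10:115816832-115849893, plus strand), a cell surface tetraspanin, averaged 80.9 ± 30.7 normalized counts in Dis3 cKO and 98.96 ± 33.2 in control, and its log2 fold change of -0.29 had an interval of -0.90 to 0.31 (edgeR, adjusted p = 0.578). For these scarce genes changes as large as those intervals were not excluded.

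Other cells that express Eomes or Pax7 were looked for by their own markers. Of 6 T and NK cell markers only Cd3e was abundant enough to be tested, and the 6 summed to 38.9 to 97.4 normalized counts in Dis3 cKO libraries and 63.8 to 106 in control libraries. Of 7 markers of skeletal muscle and satellite cells only Ckm was tested, and the 7 summed to 24.7 to 80.9 in Dis3 cKO and 37.3 to 63.2 in control. Myod1, Myf5 and Myog averaged 2.95, 6.04 and 4.58 normalized counts in Dis3 cKO, against 3.38, 1.48 and 1.87 in control. The part of these cells in the 2 genes was not tested. No such check was made for the other genes, whose counts in whole testes can also come from somatic cells.

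Levels can be compared between genes only per length, so length-scaled counts (FPKM, from the exon length and the TMM-scaled library size) were used. In Dis3 cKO testes the mean FPKM was 14.5 for Etv5, 10.2 for Ret, 10.1 for Gfra2, 9.26 for Gfra1, 9.11 for Id4, 4.71 for Bcl6b, 3.42 for Lhx1, 1.37 for Tspan8, 0.888 for Eomes and 0.339 for Pax7. In control testes it was 12.9 for Etv5, 9.36 for Ret, 8.97 for Id4, 8.83 for Gfra1, 8.64 for Gfra2, 4.79 for Bcl6b, 2.75 for Lhx1, 1.68 for Tspan8, 0.702 for Eomes and 0.312 for Pax7. Etv5 thus stood above the rest in both groups. In both groups the libraries of Ret, Gfra1, Gfra2 and Id4 overlapped in level, so their order was within the spread, and in control the same held for Lhx1 and Tspan8. In Dis3 cKO it held for Bcl6b with Lhx1, Tspan8 with Eomes and Eomes with Pax7.

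Within replicates 1 to 3, 3 of the 10 genes were higher in Dis3 cKO than in control and none was lower, where 4.8% of the genes tested in those libraries were called higher. Eomes averaged 153 normalized counts in these Dis3 cKO testes and 86.8 in these control testes (log2 fold change 0.82, SE 0.194, edgeR, adjusted p = 0.0243). Lhx1 averaged 533 in Dis3 cKO and 340.1 in control (log2 fold change 0.65, SE 0.128, edgeR, adjusted p = 0.00988). Ret averaged 2674 in Dis3 cKO and 2251 in control (log2 fold change 0.25, SE 0.0638, edgeR, adjusted p = 0.0343). Over the 10 genes the log2 fold changes had a median of 0.22 here (all genes, -0.02). Within replicates 4 and 5, with 2 libraries per genotype, none of the 10 passed the threshold by edgeR, although 23.4% of all tested genes did in one direction or the other. There 8 of the 10 log2 fold changes were below 0, with a median of -0.14 (all genes, -0.01), 1 gene (Id4) was lower at an unadjusted p under 0.05, and 0 were higher.

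**Figure D2:**
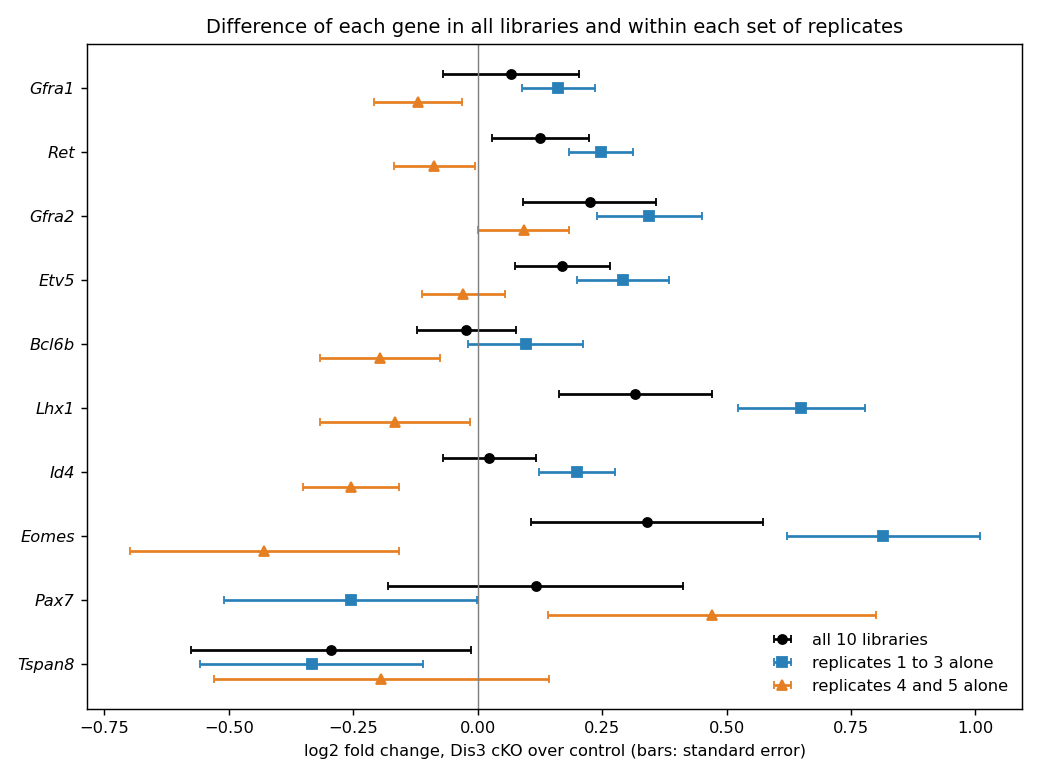
Log2 fold change of Dis3 cKO over control for each of the 10 genes, with its standard error, in all 10 libraries (black circles), in replicates 1 to 3 alone (blue squares) and in replicates 4 and 5 alone (orange triangles). For Lhx1, Id4 and Eomes the squares lie above 0 and the triangles below 0, and for Pax7 the order is the other way round.

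The difference between the sets was then tested as an interaction, the log2 fold change in replicates 4 and 5 minus that in replicates 1 to 3, and adjusted over all genes. It passed the threshold for 3 of the 10 genes, against 4.58% of all tested genes, by edgeR. Eomes differed by -1.25 (SE 0.332, edgeR, adjusted p = 0.0396), with means in replicates 4 and 5 of 90.5 normalized counts in Dis3 cKO and 123 in control. Lhx1 differed by -0.82 (SE 0.212, edgeR, adjusted p = 0.0330), with means there of 408 in Dis3 cKO and 460 in control. Id4 differed by -0.46 (SE 0.120, edgeR, adjusted p = 0.0357), with a mean of 1330.1 in Dis3 cKO and 1158 in control in replicates 1 to 3, and of 1047 in Dis3 cKO and 1256 in control in replicates 4 and 5. The interaction was below 0 for 8 of the 10 genes and did not pass for Ret (-0.34, edgeR, adjusted p = 0.0720), Gfra1 (-0.29, edgeR, adjusted p = 0.184) or Etv5 (-0.33, edgeR, adjusted p = 0.221).

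Summed cell type markers also differed between the sets. Each sum follows its most abundant genes. In Dis3 cKO, Clu averaged 86554 and Rhox8 47093 of a Sertoli sum of 204529, and Cdh5 13799 of an endothelial sum of 18057. Col1a1 averaged 139515 of a stromal sum of 297639 there. The median log2 fold change was 0.18 in replicates 1 to 3 and 0.08 in replicates 4 and 5 for Sertoli markers. It was -0.12 and 0.55 for stromal, -0.34 and 0.79 for myoid and 0.01 and 0.58 for endothelial markers. The summed normalized count of 7 stromal markers was 195401 to 260226 in Dis3 cKO replicates 1 to 3, against 249230 to 278708 in control replicates 1 to 3. In replicates 4 and 5 it was 383388 to 393039 in Dis3 cKO, against 184861 to 185199 in control. The Sertoli markers summed to 217765 to 237487 in Dis3 cKO replicates 1 to 3 and 172111 to 176066 in Dis3 cKO replicates 4 and 5, against 182199 to 189539 and 166557 to 168892 in the same control replicates. The peritubular myoid markers summed to 60204 to 69978 in Dis3 cKO replicates 1 to 3 and 75876 to 76481 in Dis3 cKO replicates 4 and 5, against 70524 to 75016 and 46799 to 47060 in the same control replicates. Endothelial markers summed to 15193 to 18010 in Dis3 cKO replicates 1 to 3 and 19585 to 20086 in Dis3 cKO replicates 4 and 5. In the same control replicates they summed to 14244.5 to 16831 and 14810 to 14854. The 12 genes common to germ cells summed to 23012 to 24826 in Dis3 cKO replicates 1 to 3 and 19734 to 21464 in Dis3 cKO replicates 4 and 5, against 27139 to 30398 in control replicates 1 to 3 and 32956 to 33451 in control replicates 4 and 5. Their part in the values of the 10 genes was not tested, and what the division of the libraries stands for is not given in the sources used here.

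The 10 genes were next set on the scale of the germ cells, with library sizes taken from the summed counts of the 12 genes common to germ cells. On this scale the median of all tested genes moved to 0.44, and 53.5% of them were called higher and 0.394% lower. Of the 10 genes, 8 were called higher, all but Pax7 and Tspan8, and none lower. Their median was 0.58. Relative to the median of all genes the log2 fold changes were 0.34 for Lhx1, 0.34 for Eomes, 0.26 for Gfra2, 0.17 for Etv5, 0.17 for Pax7, 0.12 for Ret, 0.06 for Gfra1, 0.03 for Id4, -0.01 for Bcl6b and -0.33 for Tspan8. A call on this scale says that a gene was higher relative to the germ cell genes, as most tested genes were.

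Per 100 counts of the germ cell genes, Ret had 10.9, 11.5, 11.4, 9.02 and 10.3 counts in Dis3 cKO, against 7.29, 7.52, 8.47, 5.98 and 6.76 in control. Id4 had 5.65, 5.60, 5.55, 4.98 and 5.20 in Dis3 cKO, against 3.88, 3.99, 4.08, 3.54 and 4.03 in control. Both genes were higher in every Dis3 cKO library than in any control library, also in replicates 4 and 5. The same held for Etv5, Lhx1 and Gfra2, so that 5 of the 10 genes had groups that did not overlap on this scale, where 32.6% of all tested genes did. Gfra1 averaged 7.76 ± 1.21 in Dis3 cKO and 5.52 ± 1.01 in control (SD, n = 5 each, exact permutation test, two-sided, p = 0.0317). The germ cell sum it is divided by was itself lower in every Dis3 cKO library, so an unchanged gene also rises on this ratio. Relative to the median of all genes Gfra1 was at 0.06 on the log2 scale. Tspan8 averaged 0.354 ± 0.107 in Dis3 cKO and 0.329 ± 0.127 in control (exact permutation p = 0.754).

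**Figure D3:**
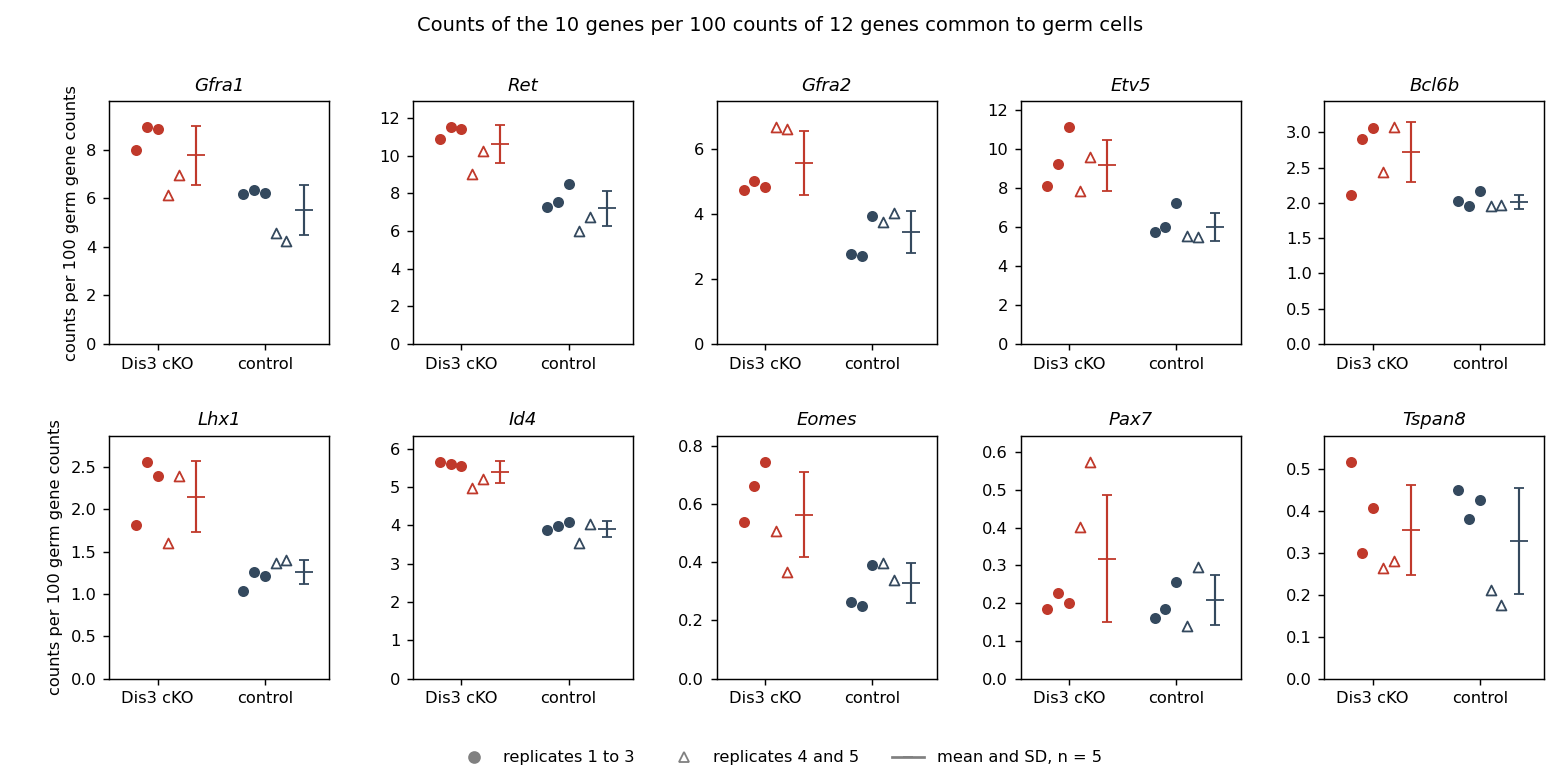
Counts of each of the 10 genes per 100 summed counts of the 12 genes common to germ cells, in the 5 Dis3 cKO libraries (left, red) and the 5 control libraries (right, dark blue), with circles for replicates 1 to 3, open triangles for replicates 4 and 5, and the mean with its SD. The groups lie apart for Ret, Gfra2, Etv5, Lhx1 and Id4.

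Other genes of the pathway are read against the 4.42% called higher and 3.48% called lower over all genes, or, where the set of replicates was a term in the fit, against 8.84% higher and 8.33% lower. Of the GDNF family ligands and the other receptors, 7 of 9 were tested, 1 was higher and 0 lower. Sdc3, a proteoglycan that can bind GDNF, averaged 4193 ± 568 normalized counts in Dis3 cKO and 3265 ± 226 in control (log2 fold change 0.36, edgeR, adjusted p = 0.0262). The Sdc3 call was lost when any 1 of 7 libraries was left out (Dis3 cKO replicates 2, 3 and 5 and control replicates 1, 2, 4 and 5), with an adjusted p of up to 0.0710 by edgeR. Gdnf itself had 2356, 2096, 1982, 1956 and 2080.2 normalized counts in Dis3 cKO, against 1841, 1969, 2019, 1511 and 1531 in control. Its log2 fold change of 0.24 did not pass in the comparison of all libraries (edgeR, adjusted p = 0.131), and it did with the set of replicates as a term (edgeR, adjusted p = 0.0218). Within the sets it was 0.14 in replicates 1 to 3 (edgeR, adjusted p = 0.325) and 0.42 in replicates 4 and 5 (edgeR, adjusted p = 7.69e-04). Ncam1, which can receive the GDNF signal without RET, had 3123, 3912, 4170.4, 6181 and 6112 in Dis3 cKO and 4032, 4097, 4129, 2562 and 2609 in control. The Ncam1 difference changed between the sets of replicates (interaction 1.38, edgeR, adjusted p = 4.11e-06), and its overall log2 fold change of 0.43 did not pass (edgeR, adjusted p = 0.192). Gfra4, the receptor of persephin, had a log2 fold change of -0.42 (edgeR, adjusted p = 0.206).

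Of 25 genes that relay the RET signal, 2 were higher and 0 lower, with a list median of 0.06 on the log2 scale. Gab1, a docking protein, averaged 6538 ± 205 normalized counts in Dis3 cKO and 5456 ± 278 in control (log2 fold change 0.26, edgeR, adjusted p = 0.0153). Ptpn11, the phosphatase SHP2, averaged 4883 ± 118 in Dis3 cKO and 4281 ± 76.7 in control (log2 fold change 0.19, edgeR, adjusted p = 0.0399). The Ptpn11 call was lost without any 1 of the libraries except control replicate 3 (edgeR, adjusted p up to 0.0910), and Ptpn11 passed in neither set of replicates alone. Sos1 (0.22, edgeR, adjusted p = 0.0553) and Hras (-0.25, edgeR, adjusted p = 0.0863) did not pass, and both did with the set of replicates as a term (edgeR, adjusted p = 0.0136 for Sos1 and 0.0423 for Hras). In that fit 4 of the 25 were higher and 2 lower.

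Of 12 other genes that respond to GDNF or FGF, 0 passed by edgeR in either direction, 5 were higher and 1 lower at an unadjusted p under 0.05, and the median was 0.23. At that unadjusted p, 2361 of all 20043 tested genes were higher and 2432 lower by edgeR. By DESeq2, 2 of the 12 were higher, where 1309 of all genes were. By edgeR with the set of replicates as a term 3 of the 12 were higher. The lowest p values were those of Egr3 (log2 fold change 0.61, edgeR, adjusted p = 0.0614), Egr2 (0.40, edgeR, adjusted p = 0.0815), Spry4 (0.29, edgeR, adjusted p = 0.124) and Etv4 (-0.18, edgeR, adjusted p = 0.151). With the set of replicates as a term Egr3 and Egr2 passed (edgeR, adjusted p = 0.0202 and 0.0423), as they did by DESeq2 (adjusted p = 0.0238 and 0.0332). The Egr2 difference changed between the sets, at 0.66 in replicates 1 to 3 and -0.05 in replicates 4 and 5 (interaction -0.72, edgeR, adjusted p = 0.0114). Of 13 ligands that somatic cells offer to the stem cells, 12 were tested, 2 were higher and 0 lower. Igf1, the growth factor, averaged 18635 ± 2546 normalized counts in Dis3 cKO and 13412 ± 483 in control (log2 fold change 0.47, edgeR, adjusted p = 0.00532), and Cxcl12, the chemokine that binds CXCR4, averaged 4705 ± 391 in Dis3 cKO and 3909 ± 237 in control (log2 fold change 0.27, edgeR, adjusted p = 0.0334). The Cxcl12 call was lost when any 1 of 6 libraries was left out (Dis3 cKO replicates 2, 4 and 5 and control replicates 1, 2 and 4), with an adjusted p of up to 0.0890 by edgeR. Nrg1 (0.47, edgeR, adjusted p = 0.0644) and Wnt5a (0.27, edgeR, adjusted p = 0.0944) did not pass, and both did with the set of replicates as a term (edgeR, adjusted p = 4.55e-04 for Nrg1 and 0.0118 for Wnt5a). In that fit 5 of the 12 were higher and 0 lower.

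Genes listed for germ cells outside the 10 gave more calls, in whole testes where somatic cells can also express some of them. Of 16 other genes of undifferentiated spermatogonia, 2 were higher and 2 lower. Shisa6, a marker of stem cells in mice, averaged 2209 ± 305 normalized counts in Dis3 cKO and 1505 ± 205 in control (log2 fold change 0.55, edgeR, adjusted p = 0.00776), and Foxc2, a forkhead factor of quiescent stem cells, averaged 955 ± 127 in Dis3 cKO and 711 ± 47.7 in control (log2 fold change 0.43, edgeR, adjusted p = 0.0169). Sox3, a factor of spermatogonia that prepare to differentiate, averaged 120.0 ± 38.2 in Dis3 cKO and 308 ± 50.7 in control (log2 fold change -1.36, edgeR, adjusted p = 0.00222), and Pou5f1, the pluripotency factor OCT4, averaged 131 ± 9.58 in Dis3 cKO and 213 ± 31.1 in control (log2 fold change -0.70, edgeR, adjusted p = 0.00742). Of 6 genes of differentiating spermatogonia, 4 were lower and 0 higher, namely Sohlh1 (-1.20), Dmrtb1 (-1.17), Stra8 (-0.89) and Sohlh2 (-0.68 on the log2 scale). The medians on the log2 scale were -0.22 for the other undifferentiated list, -0.78 for the differentiating list and -0.47 for the 12 germ cell genes, beside 0.12 for the 10 genes. Within replicates 1 to 3 they were -0.07, -0.63 and -0.40, beside 0.22 for the 10 genes, and within replicates 4 and 5 they were -0.61, -0.94 and -0.75, beside -0.14 for the 10 genes. These lists were chosen with results of these data known, and no test was made between them.

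**Figure D4:**
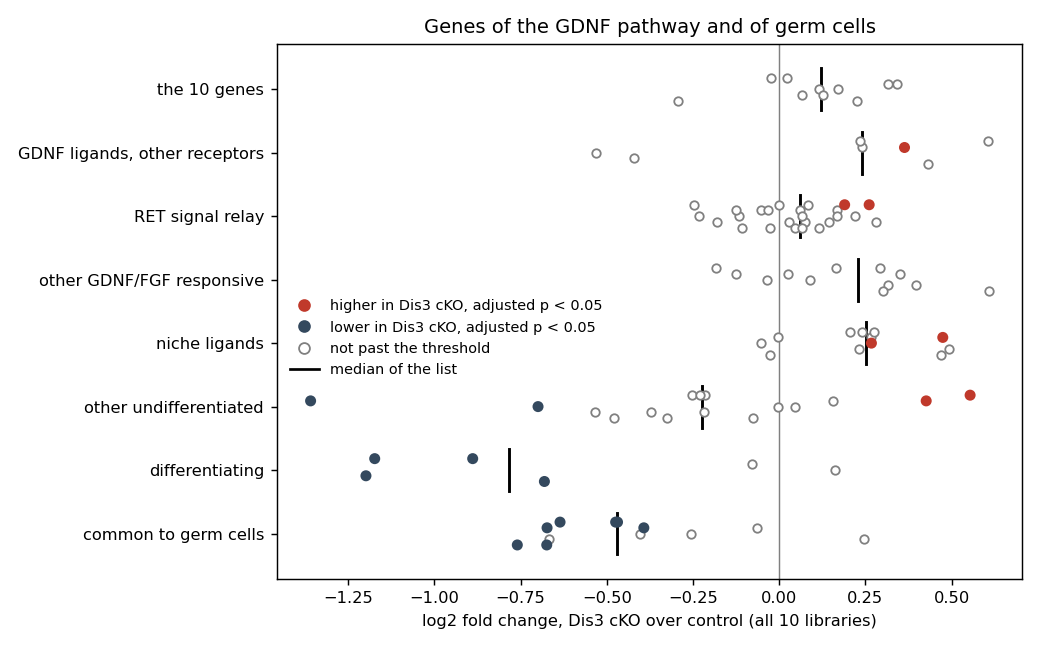
Log2 fold change of Dis3 cKO over control (all 10 libraries) for each tested gene of 8 lists, with filled points for genes past an adjusted p of 0.05 (edgeR; red higher, dark blue lower in Dis3 cKO), open points for the rest and a black bar at the median of each list. The 10 genes hold no filled point, whereas 4 of 6 differentiating and 7 of 12 germ cell genes lie in the lower set.

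DIS3 is a nuclease of the RNA exosome, which degrades promoter upstream transcripts (PROMPTs), short-lived RNAs made upstream of active genes. The second deposited table counts only the reads of the opposite strand in the 3000 bases upstream of each gene. It has such a region for 6 of the 10 genes and none for Gfra1, Lhx1, Id4 and Tspan8. Of the 12345 regions tested, 13.6% were higher in Dis3 cKO and 0.0486% lower, and their median log2 fold change was 0.64. Of the 6 regions, 5 had the mean of 3 counts needed for the test and 3 of those were higher, those of Bcl6b, Ret and Etv5.

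The PROMPT of Bcl6b had 276, 261, 257, 167 and 237 normalized counts in Dis3 cKO, against 47.5, 52.8, 24.4, 40.3 and 22.1 in control. Every Dis3 cKO library was over 3 times the highest control library. It was 6.40-fold higher (log2 fold change 2.68, SE 0.247, edgeR, adjusted p = 1.20e-23), at 2.67 in replicates 1 to 3 and 2.69 in replicates 4 and 5, and it came to 39.7% of the count of the Bcl6b gene in Dis3 cKO and 6.10% in control. Over the same libraries the Bcl6b gene had a log2 fold change of -0.02.

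The PROMPT of Ret had 59.2, 51.3, 25.7, 19.9 and 20.4 normalized counts in Dis3 cKO, against 14.9, 0.943, 0, 1.92 and 4.59 in control. These groups did not overlap either, as for 11.2% of all tested PROMPTs. The difference was 7.77-fold (log2 fold change 2.96, SE 0.495, edgeR, adjusted p = 1.23e-07), on 1.42% of the count of the Ret gene in Dis3 cKO and 0.203% in control. Control replicate 1 held most of the control count, and without it the log2 fold change was 4.17 (edgeR, adjusted p = 1.85e-09). The PROMPT of Etv5 had 35.8, 41.8, 28.0, 21.0 and 9.06 normalized counts in Dis3 cKO, against 7.46, 10.4, 5.04, 6.71 and 0.919 in control. Only Dis3 cKO replicate 5 lay within the control range. Its difference was 4.40-fold (log2 fold change 2.14, SE 0.510, edgeR, adjusted p = 4.66e-04). In replicates 4 and 5 alone the Ret and Etv5 values were 2.58 (edgeR, adjusted p = 0.147) and 1.96 (edgeR, adjusted p = 0.374). Both kept their direction and did not pass the threshold.

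The PROMPT of Pax7 had 2.47, 13.3, 7.83, 22.2 and 4.53 normalized counts in Dis3 cKO, against 3.73, 5.66, 1.68, 0 and 0 in control, and its log2 fold change of 2.13 did not pass (edgeR, adjusted p = 0.105), although it did without control replicate 2 (2.78, edgeR, adjusted p = 0.0490). The PROMPT of Eomes averaged 5.14 ± 6.86 in Dis3 cKO and 4.89 ± 2.76 in control (log2 fold change 0.05, SE 0.958, edgeR, adjusted p = 0.990), with most of the Dis3 cKO count from replicate 1. That of Gfra2 averaged 4.65 ± 4.64 in Dis3 cKO and 1.49 ± 2.84 in control and was too low to be tested. RefSeq places the noncoding genes Gm33408 and Gm46873 over the regions upstream of Eomes and Pax7, and no other gene over those of Ret, Bcl6b, Etv5 and Gfra2.

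**Figure D5:**
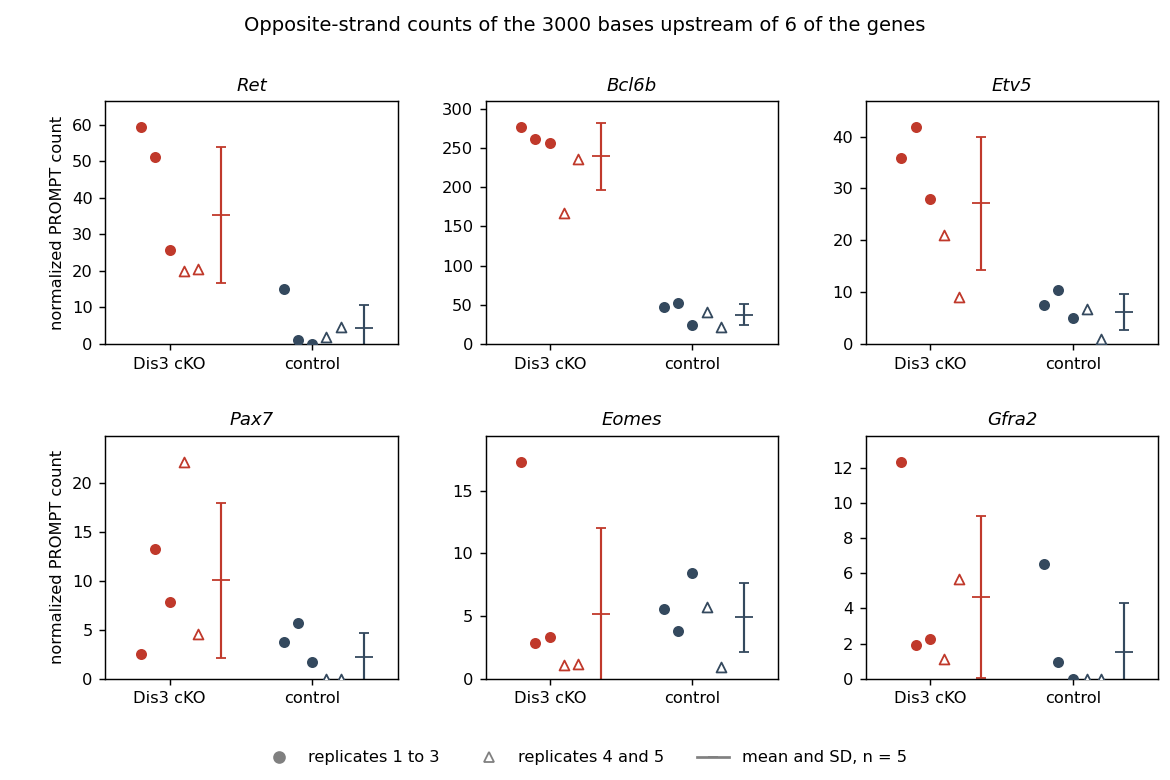
Normalized counts of the opposite strand in the 3000 bases upstream of 6 of the 10 genes, in the 5 Dis3 cKO libraries (left, red) and the 5 control libraries (right, dark blue), with circles for replicates 1 to 3, open triangles for replicates 4 and 5, and the mean with its SD. For Ret and Bcl6b all Dis3 cKO points lie above all control points.

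The promoters of 4 of the genes are shown: Etv5 because its PROMPT was higher, and Lhx1, Id4 and Eomes because their difference changed between the sets of replicates. A link of these sequences to those differences was not tested. Each is the 250 bases before a RefSeq start site (GRCm38.p6), 5′ to 3′ on the strand of the gene, with every CG dinucleotide (CpG) in capitals. The windows are chr16:22439571-22439820 (minus strand) for Etv5, chr11:84525535-84525784 (minus strand) for Lhx1, chr13:48260866-48261115 (plus strand) for Id4 and chr9:118477939-118478188 (plus strand) for Eomes. The Etv5 window lies partly inside the counted gene, which reaches 22439719, and only partly in its PROMPT region, which starts at 22439720.
Etv5 promoter: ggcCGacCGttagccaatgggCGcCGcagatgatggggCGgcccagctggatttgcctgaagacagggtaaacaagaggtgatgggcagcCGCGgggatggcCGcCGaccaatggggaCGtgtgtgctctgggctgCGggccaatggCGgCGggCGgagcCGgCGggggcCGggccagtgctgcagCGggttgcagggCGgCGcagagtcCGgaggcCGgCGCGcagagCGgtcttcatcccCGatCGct
Lhx1 promoter: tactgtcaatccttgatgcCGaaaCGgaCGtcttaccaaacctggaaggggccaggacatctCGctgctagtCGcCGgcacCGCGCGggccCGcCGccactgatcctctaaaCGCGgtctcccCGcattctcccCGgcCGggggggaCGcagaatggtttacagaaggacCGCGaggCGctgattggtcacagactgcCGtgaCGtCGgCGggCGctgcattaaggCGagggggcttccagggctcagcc
Id4 promoter: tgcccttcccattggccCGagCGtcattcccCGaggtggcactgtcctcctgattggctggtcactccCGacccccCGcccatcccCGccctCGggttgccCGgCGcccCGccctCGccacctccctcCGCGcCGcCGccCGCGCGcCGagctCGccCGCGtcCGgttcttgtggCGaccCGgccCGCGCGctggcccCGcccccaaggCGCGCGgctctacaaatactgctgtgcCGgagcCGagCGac
Eomes promoter: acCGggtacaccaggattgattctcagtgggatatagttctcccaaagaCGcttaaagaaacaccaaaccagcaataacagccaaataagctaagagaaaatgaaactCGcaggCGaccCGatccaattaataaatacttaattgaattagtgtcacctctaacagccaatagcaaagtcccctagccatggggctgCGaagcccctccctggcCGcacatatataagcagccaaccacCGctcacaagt

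The promoter table held 7 of the 10 genes. The Id4 window had 35 CpG, and 2.97% of the 32851 promoters of the table had at least as many. The Etv5 window had 27 (8.56%) and the Lhx1 window 26 (9.59%). The Eomes window had 8 CpG (43.0%) and 46.4% G or C, fewer CpG than these 3. Pax7 had 13 CpG, Gfra1 10 and Tspan8 4, where the median of all promoters was 6. The letters CCGGAA, a longer form of the GGAA core bound by ETS factors such as ETV5, were searched on both strands. They were present in 12.03% of all promoters and in 1 of the 7, that of Gfra1. The shorter core was not counted, and promoters without CCGGAA can hold it, as the Lhx1 window does. A match is a description of the letters and not of binding.

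The genes whose course over the 10 libraries was nearest to that of Ret and Gfra1 were looked up among the 13119 genes that averaged 100 normalized counts or more, by the root mean square difference of centred log2 CPM. For Ret they were Tcf7 (0.025), Tmem184a (0.056), Zswim6 (0.057), Stk10 (0.065) and Urb2 (0.065). For Gfra1 they were Clu (0.070), Gamt (0.072), Klhl5 (0.074), Psmg1 (0.083) and Nudc (0.088). Clu is an abundant Sertoli cell gene. None of these 10 neighbours passed the threshold in the comparison of all libraries by edgeR. They were chosen for closeness, in these same libraries, to Ret and Gfra1, which had not passed, so this is no separate result. All points share the same libraries and depth.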

How the data were processed

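Total RNA of P4 testes was sequenced after a stranded library preparation with random and poly(T) priming and probe-based depletion of ribosomal RNA. Per the labels and methods, the authors used cutadapt for trimming, HISAT2 for alignment and featureCounts for counting, and the deposited tables hold raw counts per gene (sense strand) and per PROMPT (opposite strand, 3000 bases upstream). The file headers name featureCounts 1.6.4 and GENCODE M18 (GRCm38), whereas the methods name later releases. Symbols came from GENCODE M39 by gene ID, for 50129 of 54232 genes. All count columns were used, and no 2 libraries of a group agreed within sampling noise (lowest chi-square per gene 4.39).

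Genes were filtered with filterByExpr at its defaults (min.count 10, min.total.count 15), normalized by TMM and tested with the quasi-likelihood test of edgeR 4.0.16 in R 4.3.3, Dis3 cKO minus control with no other term, two-sided, with Benjamini-Hochberg adjustment over all 20043 tested genes and a threshold of 0.05. DESeq2 1.42.0, the tool of the study, was an alternative. Intervals (95%) came from the standard error and the moderated degrees of freedom. PROMPTs with a mean of 3 counts or more were tested on the scale of the gene table (its library sizes and its TMM factors). The other alternatives were DESeq2 size factors, no filter, the replicate number or the set of replicates as a term, each set alone, each library left out and germ cell library sizes. Counting error of single values was not given separately. The p-values rest on the spread between libraries of different mice, which each fit moderates across all its genes or PROMPTs. In the fit without the set of replicates as a term, that spread includes their division. An exact permutation test of 5 against 5 libraries cannot go below 0.00794. It gave that value for the PROMPTs of Bcl6b and Ret and 0.0159 for that of Etv5. The far smaller edgeR p-values of these PROMPTs draw on the moderation. The procedure was also run on simulated counts with known folds. These were drawn with the same dispersion for all genes and PROMPTs and without the division of the replicates, so that run does not cover the division.

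All 10 genes, Dis3, Gdnf, Ncam1, Ddx4 and Dazl were to be named, with up to 4 genes of the lowest p of each other list and the 5 nearest genes of Gfra1 and Ret. Of the cell type markers, the sums of the stromal, Sertoli, myoid, endothelial, T and NK cell and skeletal muscle lists are given. Ddx4 (log2 fold change -0.26, edgeR, adjusted p = 0.323; 0.16 in replicates 1 to 3 and -0.84 in replicates 4 and 5, interaction -1.01, adjusted p = 9.73e-05) and Dazl (-0.67, edgeR, adjusted p = 0.00292) belong to the 12 germ cell genes (Ddx4, Dazl, Dnd1, Tdrd1, Tdrd5, Tdrd9, Tdrd12, Mov10l1, Piwil2, Asz1, Tex15 and Mael). The members and lists were chosen with earlier results of these data known. Promoters came from a RefSeq table, with Python 3.11.15, pandas 2.3.3 and matplotlib 3.10.9.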

Additional observations from a re-analysis of the deposited data

Results flagged for a closer look

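Lhx1, Id4 and Eomes had a difference between Dis3 cKO and control that itself differed between the 2 sets of replicates, by edgeR's test of the interaction. The sets had been seen in these same libraries beforehand, so the interaction is a description and not an independent test. The log2 fold change in replicates 4 and 5 minus that in replicates 1 to 3 was -0.82 for Lhx1, -0.46 for Id4 and -1.25 for Eomes.

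Among 30 groups of 5 values, chance would set about 1 in 20 far apart, and 2 had such a value. Ret in control replicate 4, at 2000.3 normalized counts, lay below the other control libraries, which held 2216 to 2298. The PROMPT of Eomes in Dis3 cKO replicate 1, at 17.3 normalized counts, lay above the other Dis3 cKO libraries, which held 1.11 to 3.35.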

How the results depend on the processing

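With library sizes from the germ cell genes 8 of the 10 genes were called higher, and in replicates 1 to 3 alone 3 were. Under all other alternatives run, leave-one-out included (0 to 0), the counts called higher and lower were 0. Some log2 fold changes that had not passed the threshold turned sign. In replicates 4 and 5 alone they were -0.12 for Gfra1, -0.087 for Ret, -0.029 for Etv5, -0.17 for Lhx1, -0.26 for Id4 and -0.43 for Eomes, and in replicates 1 to 3 alone 0.10 for Bcl6b and -0.26 for Pax7. On the germ cell scale they were 0.43 for Bcl6b and 0.11 for Tspan8, where the median of all genes was 0.44, so that relative to it both kept their sign (-0.01 and -0.33). With each library left out they ran from -0.0027 to 0.16 for Gfra1, -0.081 to 0.026 for Bcl6b, -0.032 to 0.079 for Id4 and -0.14 to 0.32 for Pax7. The PROMPT of Eomes ran from -1.16 to 0.33 with each library left out and was -0.21 with the set of replicates as a term, alternatives chosen after seeing the data.

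No label pairs the samples by replicate number, and the values did not settle whether they are paired. Same-numbered libraries correlated at 0.083 to 0.183 in their deviations from the group means. Libraries of other numbers averaged 0.10 within the same set of replicates and -0.12 across the sets. Of the 5 Dis3 cKO libraries, 3 correlated best with their own number. With the replicate number as a block, 0 of the 10 genes were called, the PROMPT of Eomes was at -0.38, and over all genes 1489 were called higher and 1337 lower, against 885 and 698 without it. These counts were 1772 and 1669 with the set of replicates as a term, 2361 and 2360 in replicates 4 and 5 alone, 10717 and 79 on the germ cell scale, and down to 516 and 366 with 1 library left out. The cause of these shifts was not tested. Standard errors were largest for Pax7, Tspan8 and Eomes, the genes with the lowest counts. With the set of replicates as a term they went from 0.296 to 0.236 for Pax7 and from 0.282 to 0.179 for Tspan8. For Eomes they went from 0.233 to 0.229. The part of depth in them was not tested. The PROMPTs of Ret, Etv5, Pax7 and Eomes rest on few counts.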
